A study of Zea mays with 18 samples.

Results

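In immature maize (Zea mays) endosperm, 89 arrayed clones without a gene name gave a higher signal in the opaque2 (o2) mutant than in wild type. This held in all 9 replicates of the study, with the deposited ratio read as wild type over o2, which is likely but not settled. The clones are 89 of 7466 clones measured and 1.28% of the 6977 clones that carry no gene symbol in the platform annotation. A clone was a member if all 9 of its replicate values, as o2 over wild type, were above 0 and their mean was at or above 0.25 log units. The values that chose the members are therefore described here and not tested. No identifier other than the array's own was at hand for these clones, so they are called by that number, and no gene, role or sequence is given for them.

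The arrays compared poly(A) RNA of o2 mutant endosperm with that of wild-type endosperm, both collected 14 days after pollination, in 3 genetic settings. These were the o2 mutant and wild type of the inbred line B46, the o2 mutant and wild type of the inbred line M14, and pools (mixed) of 8 o2 mutant lines and of 8 wild-type lines, A619, B14A, B45, B46, B57, B66, B73 and M14. There were 3 independent pairs of samples per setting, and 2 arrays per pair carried them with the Cy5 and Cy3 dyes exchanged. The mean of these 2 arrays is 1 replicate, which gives n = 3 per setting and 9 in all from 18 arrays. These are bulk tissue samples, so a higher RNA level per cell and a larger share of one cell type cannot be told apart, and a log ratio gives no level by which the tissue could be checked. The pools held RNA of B46 and M14 too, and their values are averages over lines within 1 RNA sample.

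The product of o2 is an endosperm transcription factor of the bZIP family, which activates zein storage protein genes and a few other genes, among them pdk1 (pyruvate orthophosphate dikinase). In its mutants the zeins, which hold little lysine, are reduced, and proteins other than zeins make up more of the kernel protein. Kernels of o2 are soft and opaque.

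That wild type stands on top of the deposited ratio is likely but not settled. All 18 arrays were taken to hold wild type over o2 on 2 grounds. The design text names wild type first, and a zein gene and pdk1 then come out lower in o2. The values were then turned to o2 over wild type. Under this reading the clone of o2 itself, also a check of direction, had a mean of -0.42 ± 0.074 log units (SE). It lay below 0 in 9 of 9 replicates. Its limma adjusted p of 0.0150 would be the same with the sign turned, so it does not bear on the direction. The alpha-zein gene z1C1_12 (-2.25) and pdk1 (-1.07), which helped to choose the reading, also lay below 0 in 9 of 9. On the other hand, the 2 arrays of a dye swap correlated between -0.35 and -0.018 over all clones in the 9 replicates. Under the reading used these 2 arrays hold the same ratio, while with Cy5 over Cy3 they would hold opposite ones. Among arrays of the same dye orientation, the 18 pairs within a setting all correlated above 0, between 0.013 and 0.44 with a median of 0.21, while the 54 pairs between settings ran from -0.34 (M14 replicate 1 and mixed replicate 1 with wild type on Cy5) to 0.39, with 29 above 0. If the table held o2 over wild type, the same 89 clones would be lower in o2 with the same sizes. If it held Cy5 over Cy3 on every array, the turned means of these 89 clones would lie between -0.19 and 1.11 with a median of 0.042, 60 above 0 and 29 below. Then 4 unnamed clones would meet the rule, 0 of them among the 89, and 9 would meet it with all signs turned. The base of the log is not stated either, so differences are in log units, with some folds on base 2 and on the natural log.

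Most members differed little between o2 and wild type. Their mean over the 9 replicates ran from 0.25 to 1.41 log units, with a median of 0.34, which is 1.27-fold on base 2 or 1.40-fold on the natural log. The middle 50% of members lay between 0.29 and 0.46. Only 19 of 89 had a mean at or above 0.5, and 3 had a mean at or above 1. The unnamed clones that meet the mirror rule, below 0 in all 9 replicates with a mean at or below -0.25, were more numerous and larger in size under the reading used. There were 325 of them (4.66% of unnamed clones) with a median of -0.73, and 224 of the 325 lay at or below -0.5, which is 68.9% against 21.3% of the 89 members on the higher side. Both sets were chosen on these values, so this difference was not tested. With o2 over wild type in the table, the 325 would be the higher and the 89 the lower set, and with Cy5 over Cy3 the 2 rules would take 4 and 9 clones.

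Around the mean threshold the values run on without a gap. The members nearest above it were clones 10721, 1401 and 12883, with means of 0.251, 0.251 and 0.25 log units. The nearest unnamed clones below it with 9 of 9 values above 0 were 9813, 2139 and 8093, with 0.247, 0.244 and 0.243. In all, 94 unnamed clones were above 0 in 9 of 9 replicates and short of the threshold. A further 149 passed the mean threshold with 8 of 9 values above 0. The highest of these were clone 8375 (mean 1.13, with -0.37 in M14 replicate 2), clone 459 (1.08, with -2.21 in mixed replicate 1) and clone 639 (0.89, with -1.11 in mixed replicate 1), each kept out by 1 replicate.

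**Figure D1:**
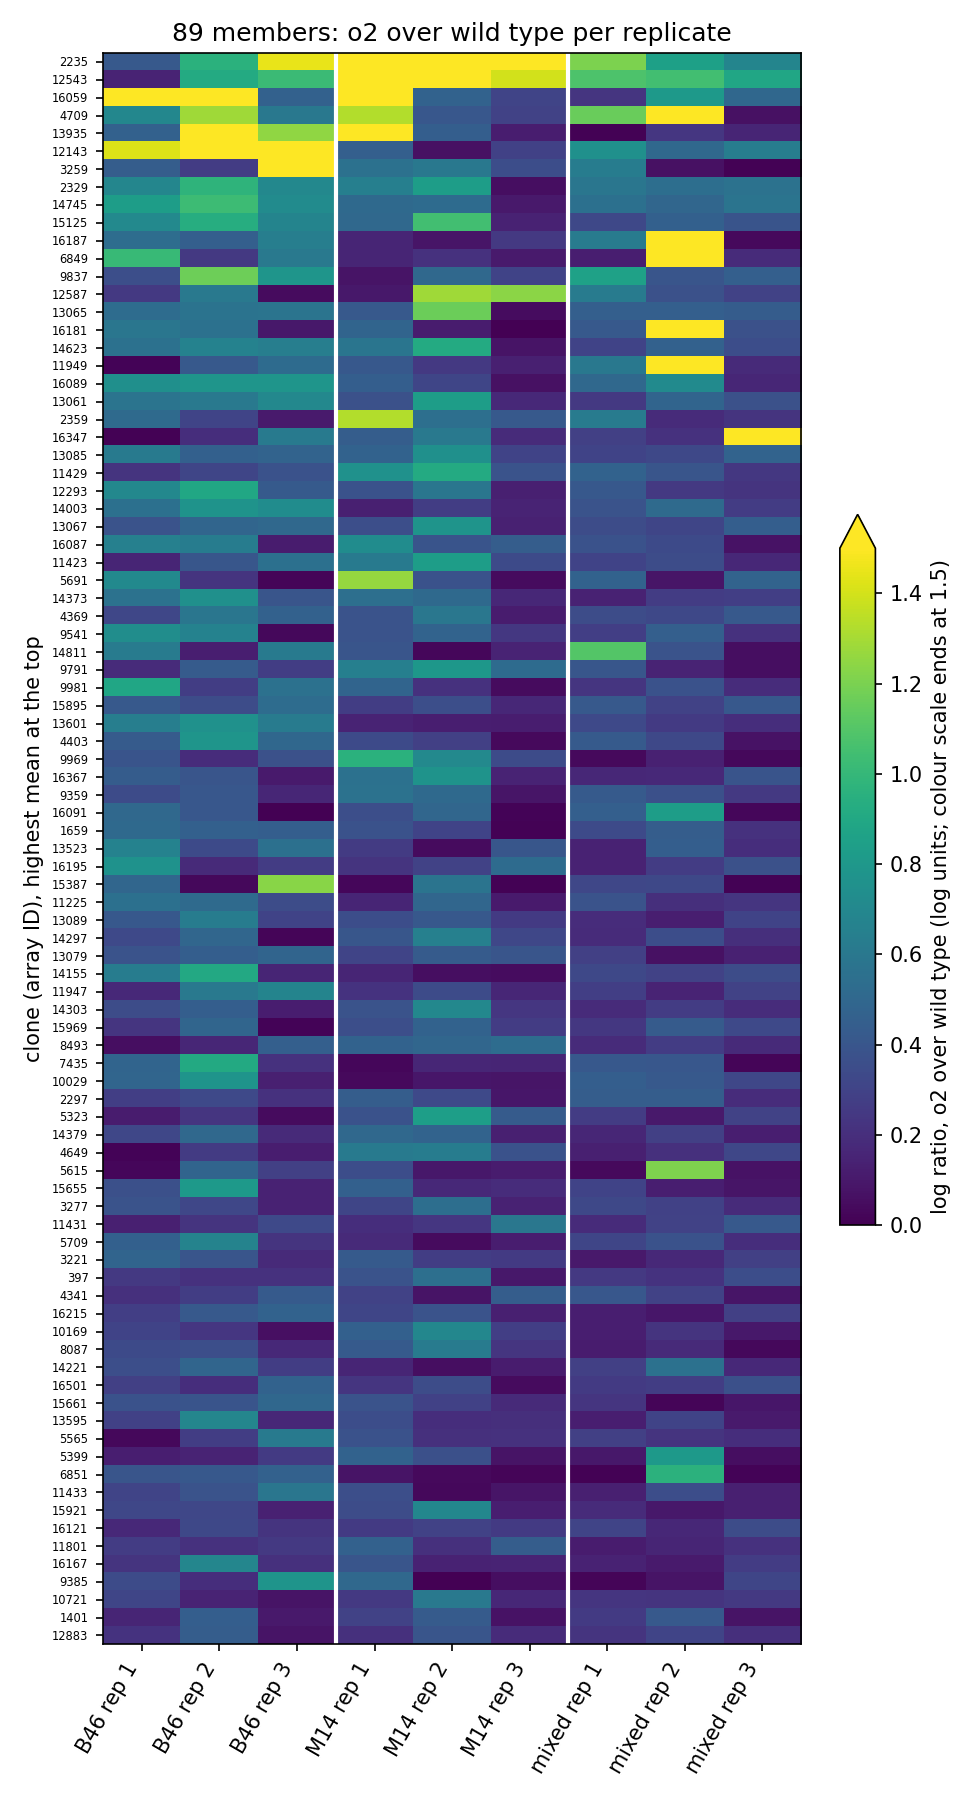
Log ratio of o2 over wild type (colour, log units, scale ending at 1.5) for the 89 members (lines, highest mean at the top) in the 9 replicates (columns, 3 per genetic setting). Clones 2235 and 12543 are brightest in M14, clone 12143 in B46, and the 70 members below the top 19 stay under 0.5 in mean.

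Clone 2235 had the highest mean, 1.41 ± 0.91 log units (SD, n = 9), 2.66-fold on base 2 or 4.11-fold on the natural log. Its values were 0.42, 0.96 and 1.45 in B46, 3.34, 2.32 and 1.49 in M14, and 1.21, 0.85 and 0.68 in the pools. Clone 12543, with a mean of 1.19 ± 0.62, had 0.15, 0.92 and 1.02 in B46, 1.93, 2.26 and 1.40 in M14, and 1.08, 1.04 and 0.89 in the pools. In both clones each M14 replicate was above every replicate of B46 and of the pools, which overlapped each other. Clone 12543 was above 0 on all 18 arrays and clone 2235 on 17, with -0.19 on 1 array of B46 replicate 1, and in both the means over the 2 dye orientations were close.

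Clone 12143 had the opposite pattern. Its values were 1.42, 1.60 and 1.73 in B46, 0.45, 0.068 and 0.29 in M14, and 0.75, 0.51 and 0.64 in the pools. The B46 values lay above all others, the mixed values between, and the M14 values at the bottom, so that the 3 settings did not overlap. Its mean over 9 replicates was 0.83 ± 0.60 (SD), 1.78-fold on base 2 or 2.29-fold on the natural log.

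A second group of strong members owed much of its size to 1 or a few replicates. Clone 16059 (mean 1.16 ± 1.05, SD, n = 9) had 2.37, 2.59 and 0.46 in B46, 2.66, 0.47 and 0.31 in M14, and 0.23, 0.81 and 0.50 in the pools. Clone 4709 (0.94 ± 0.77) had 0.69, 1.29 and 0.60 in B46, 1.33, 0.41 and 0.30 in M14, and 1.16, 2.63 and 0.067 in the pools. Clone 3259 (0.66 ± 0.90) stood at 2.99 in B46 replicate 3 and between 0.0087 and 0.63 in the other 8 replicates. In each of the 3 clones the settings overlapped. Some of their high replicates rested on 1 array of the pair more than on the other. For clone 16059 the arrays of B46 replicate 1 gave 5.17 with wild type on Cy5 and -0.43 with wild type on Cy3, while those of its highest replicate, M14 replicate 1, gave 3.21 and 2.10 in that order. For clone 3259 the 2 arrays of B46 replicate 3 gave 5.65 with wild type on Cy5 and 0.32 with wild type on Cy3. For clone 4709 those of mixed replicate 2 gave 0.72 with wild type on Cy5 and 4.53 with wild type on Cy3.

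Clone 13935 (mean 0.87 ± 1.05, SD, n = 9) was the most uneven over the dyes. Its replicate values were 0.46, 2.96 and 1.25 in B46, 2.16, 0.45 and 0.12 in M14, and 0.011, 0.24 and 0.16 in the pools. The 9 arrays with wild type on Cy5 averaged 1.98 log units and the 9 with wild type on Cy3 averaged -0.25, and it was above 0 on 11 of 18 arrays. It was the only one of the 89 members whose mean was not above 0 in both dye orientations.

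The next 3 members by mean, clones 2329, 14745 and 15125, were more even over the replicates. Clone 2329 (0.62 ± 0.25, SD, n = 9) had 0.69, 0.98 and 0.70 in B46, 0.65, 0.84 and 0.058 in M14, and 0.59, 0.54 and 0.57 in the pools. Clone 14745 (0.60 ± 0.26) had 0.83, 1.03 and 0.73 in B46, 0.51, 0.52 and 0.10 in M14, and 0.55, 0.50 and 0.58 in the pools. Clone 15125 (0.58 ± 0.29) had 0.70, 0.93 and 0.68 in B46, 0.51, 1.05 and 0.14 in M14, and 0.33, 0.46 and 0.39 in the pools. All 3 were lowest in M14 replicate 3, where the values of all clones were also narrow. Clones 16187 (0.57 ± 0.71, SD, n = 9) and 6849 (0.57 ± 0.77), which follow with nearly the same mean, had an SD above their mean.

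The smallest spread relative to the mean was that of clone 16121, which lay between 0.16 and 0.35 in all 9 replicates (mean 0.26 ± 0.065, SD) and was above 0 on 18 of 18 arrays. Its neighbours in this order were clone 15895 (0.36 ± 0.10, between 0.16 and 0.53) and clone 13085 (0.46 ± 0.15, between 0.30 and 0.75), both also above 0 on all 18 arrays. At the other end were clones 3259, 6849 and 5615 (0.30 ± 0.38). Clones 6849 and 5615 stood at 2.46 and 1.21 in mixed replicate 2, against at most 1.01 and 0.49 in their other 8 replicates. In 11 members the SD over 9 replicates exceeded the mean, and 6 of these 11 had their highest value in mixed replicate 2. Of all 89 members, 65 kept a mean at or above 0.25 without their own highest replicate and 24 did not.

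The members stood above the bulk of the clones in every replicate, which the rule fixes, but by unequal amounts. Their median was 0.39, 0.45 and 0.39 log units in the B46 replicates, 0.38, 0.43 and 0.16 in the M14 replicates, and 0.30, 0.32 and 0.22 in the mixed replicates. The values of all clones were narrowest in M14 replicate 3 and mixed replicate 3, where the median size of a value was 0.13 in both, against 0.20 to 0.29 in the other 7 replicates. Set against the median size of all values in the same replicate, the members' median was between 1.25 and 1.90 times as large, and 1.27 and 1.68 times in those 2 narrow replicates. The median member ranked between the 78.9th and the 88.4th percentile of all 7466 clones, so that in each replicate many clones outside the set were higher. M14 replicate 3 held the lowest value of 27 members and the highest of 3. B46 replicate 2 held the lowest of 0 and the highest of 22, and M14 replicate 2 the highest of 23. Without M14 replicate 3 and mixed replicate 3, an alternative chosen after seeing the data, the same rule gave 185 clones, 87 of the 89 among them.

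**Figure D2:**
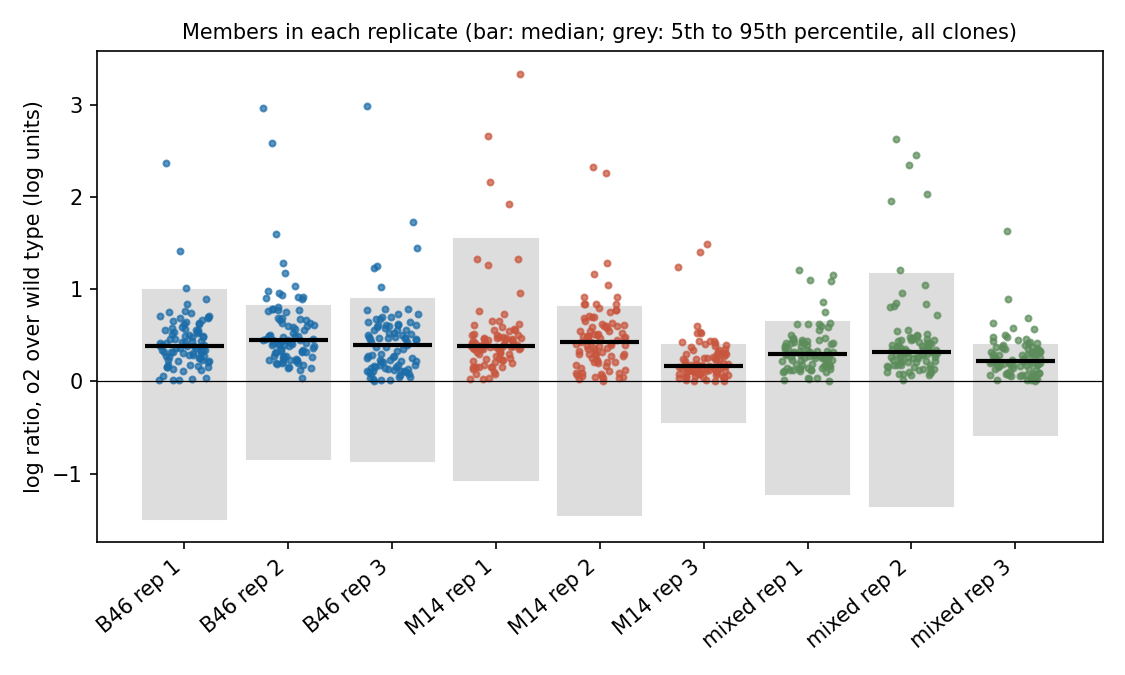
Log ratio of o2 over wild type (vertical axis, log units) of the 89 members (points) in each replicate, with the members' median (black bar) and the 5th to 95th percentile of all 7466 clones (grey). The medians run from 0.16 in M14 replicate 3 to 0.45 in B46 replicate 2, and most members lie inside the grey band.

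Over the 3 genetic settings, the members' means had medians of 0.43 (B46), 0.34 (M14) and 0.28 log units (mixed pools), beside 0.0068, -0.0023 and -0.013 for all clones. The replicate medians had an SD of 0.034 for B46, 0.14 for M14 and 0.056 for the pools (n = 3 each), so B46 and M14 differed by less than the spread of M14. The order of B46 and M14 turned when the arrays were scaled to the same spread, where the medians were 0.35 in B46, 0.36 in M14 and 0.32 in the pools over 90 clones, 78 of the 89 among them. The highest of the 3 settings was B46 for 48 members, M14 for 29 and the pools for 12. In 34 members all 3 settings had a mean at or above 0.25, in 43 members 2 of them had, and in 12 members 1 of them.

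Whether the o2 effect differed between lines was tested with limma over all 7466 clones. The rule used the average over 9 replicates, and a difference between settings does not contain that average. The rule still bears on it in both directions, since values held above 0 limit how far settings can differ, and steady clones were picked. The median SD within a setting was 0.17 in B46, 0.19 in M14 and 0.11 in the pools over members, beside 0.26, 0.27 and 0.22 over all clones. The shares of members at an unadjusted p and without overlap are therefore descriptions and not read against those of all clones. No member and no other clone passed an adjusted p of 0.05 for B46 minus M14 (0% of clones called), and likewise for B46 minus mixed (0%) and M14 minus mixed (0%). Before adjustment, 14 of 89 members (15.7%) had a limma p under 0.05 for B46 minus M14, beside 9.82% of all clones, 8 with the higher value in B46 and 6 with the higher value in M14. For B46 minus mixed there were 5 members (5.62%) beside 5.28%, and for M14 minus mixed 7 (7.87%) beside 5.04%. The median difference over members was 0.093 for B46 minus M14, 0.098 for B46 minus mixed and 0.054 for M14 minus mixed, against -0.011, 0.016 and 0.025 over all clones.

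The largest differences for B46 minus M14 were 1.31 ± 0.15 log units for clone 12143 (SE; limma adjusted p = 0.241), 0.73 ± 0.67 for clone 3259 (0.726) and 0.66 ± 0.76 for clone 16059 (0.786). On the M14 side they were -1.44 ± 0.47 for clone 2235 (limma adjusted p = 0.405), -1.17 ± 0.29 for clone 12543 (0.389) and -0.58 ± 0.33 for clone 12587 (0.591). Clone 12143 had the lowest adjusted p of all members in this contrast. The 3 replicates of B46 and the 3 of M14 did not overlap in 22 members (24.7%), 15 with B46 above and 7 with M14 above, beside 17.1% of all clones. For B46 and the pools 19 members (21.3%) did not overlap, all with B46 above, beside 13.5% of all clones. For M14 and the pools it was 17 (19.1%), 11 with M14 above and 6 below, beside 12.9%.

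**Figure D3:**
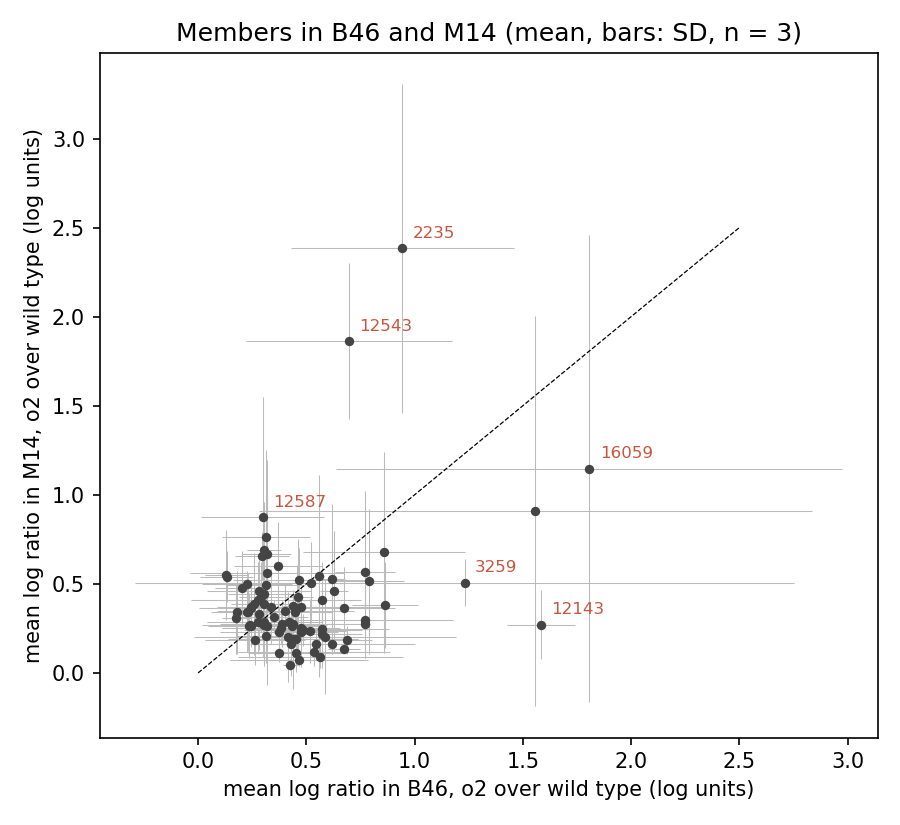
Mean log ratio of o2 over wild type in B46 (horizontal, log units) and in M14 (vertical, log units) for the 89 members, with SD bars (n = 3 each) and the line of equality (dashed). Clones 2235 and 12543 lie well above the line and clone 12143 well below it. Clones 16059 and 13935 have long bars in both B46 and M14, and clone 3259 has a long bar in B46.

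In the contrasts that the rule used, limma called 64 of 89 members higher in the average over settings, beside 1.97% of all clones. In B46 it called 21, beside 0.911% of all clones. In M14 and in the pools it called 0 (0% of clones in both). Nothing can be read from these counts about the members, since they were picked for high and steady values. The count for the average was 34, 37 and 58 without B46 replicate 1, 2 or 3, and 35, 36 and 55 without M14 replicate 1, 2 or 3. It was 29, 29 and 36 without mixed replicate 1, 2 or 3. With the trend and robust options of limma it was 5. The count for B46 was 1, 4 and 1 without B46 replicate 1, 2 or 3, and 12, 20 and 18 without M14 replicate 1, 2 or 3. It was 7, 8 and 7 without mixed replicate 1, 2 or 3. The share of all clones called in these other fits is not given. The counts therefore do not show whether the change belongs to the members or to all clones.

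Values left out of the choice give a view that the rule did not fix. When the rule was applied to 8 replicates, it chose between 86 and 125 unnamed clones, depending on the replicate left out. In the replicate left out, between 68.9% (M14 replicate 2) and 95.3% (B46 replicate 2) of these clones lay above 0, beside 46.3% to 51.7% of all unnamed clones. Their median there was highest in B46 replicate 2, at 0.41 log units, and lowest in M14 replicate 3, at 0.11. The clones chosen this way thus kept their sign more often than not in each of the 9 replicates. A drift along the rows would keep its sign in the same way. So would a difference between the dyes, were the table Cy5 over Cy3. What the kept sign comes from was not tested.

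The same was done with a whole setting left out. Clones chosen on M14 and the pools numbered 149, and 77 of them (51.7%) lay above 0 in all 3 B46 replicates, beside 21.5% of unnamed clones. Clones chosen on B46 and M14 numbered 212, and 100 of them (47.2%) lay above 0 in all 3 mixed replicates, beside 17.1%. Clones chosen on B46 and the pools numbered 272, and 82 of them (30.1%) lay above 0 in all 3 M14 replicates, beside 17.7%. Their median in the setting left out was 0.20 log units in B46, 0.14 in the pools and 0.11 in M14. The pools held both B46 and M14, so in no case was the setting left out a separate set of lines. What the kept sign comes from was not tested here either.

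The dye orientations were compared in the same way, since the 2 arrays of a pair share their RNA but not their labelling. On the 9 arrays with wild type on Cy5 alone, 90 unnamed clones met the rule, and 73 of them (81.1%) had a mean above 0 on the 9 arrays with wild type on Cy3, beside 48.2% of unnamed clones, with a median of 0.21 log units. On the arrays with wild type on Cy3 alone, 51 clones met the rule, and 43 (84.3%) had a mean above 0 on the arrays with wild type on Cy5, beside 52.1%, with a median of 0.29. Only 40 of those 90 clones and 26 of those 51 were among the 89 members. Were the table Cy5 over Cy3, a difference between the dyes would have the same sign in both orientations. The shares above therefore cannot tell such a difference from an o2 effect.

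Among the 89 members, 19 were above 0 on all 18 arrays and 16 more on 17. The lowest number was 11 arrays. The 9 arrays with wild type on Cy5 gave a median of 0.39 log units over members and those with wild type on Cy3 gave 0.30, and 60 of 89 members were higher in the first orientation. The contrast of the orientations (wild type on Cy3 minus wild type on Cy5, divided by 2) does not enter the mean that chose the members. Were the table Cy5 over Cy3 throughout, this contrast with its sign turned would be the o2 effect. It had a median of -0.042 over members and -0.0055 over all clones. No member passed limma's adjusted p of 0.05 there (0% of clones called), and 5 members (5.62%) had an unadjusted p under 0.05, beside 6.64% of all clones. The lowest adjusted p was that of clone 13935 (-1.11 ± 0.32, SE; limma adjusted p = 0.716). In mixed replicate 3, 84 members were above 0 with wild type on Cy5 and 56 with wild type on Cy3, the largest gap of the 9 replicates.

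**Figure D4:**
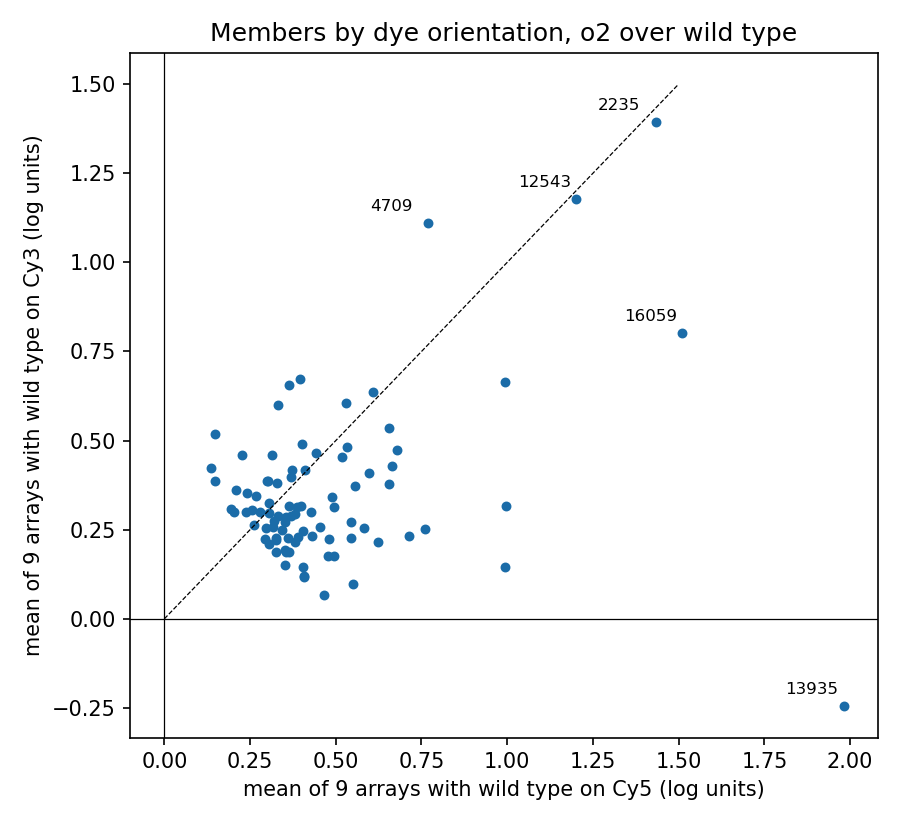
Mean log ratio of o2 over wild type of the 89 members over the 9 arrays with wild type on Cy5 (horizontal, log units) and over the 9 arrays with wild type on Cy3 (vertical, log units), with the line of equality (dashed). Clones 2235 and 12543 lie on the line, 88 of 89 members are above 0 on both axes, and clone 13935 is below 0 on the vertical one.

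Some of the highest replicate values came mostly from 1 of the 2 arrays. In 22 members the highest of the 9 replicate values was at or above 1. In 7 of these 22, clones 2235, 5691, 12143, 12543, 13065, 15125 and 16059, both arrays of that replicate were at or above 1. In 4 of them, clones 5615, 6849, 14811 and 16181, 1 of the 2 arrays was below 0. Clone 6849, for example, had -0.12 with wild type on Cy5 and 5.03 with wild type on Cy3 in mixed replicate 2. On each array 1 value was shared by many clones, and 3 members (3.37%) sat at such a value on some array, against 10.1% of all unnamed clones.

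The members were not spread evenly over the table. With the row numbers divided into 10 equal stretches, the last stretch held 20 members (2.84% of its unnamed clones) and the first held 2 (0.285%). Stretches 7 to 10 together held 58 members, which is 65.2% of members against 39.8% of unnamed clones. Of the 325 clones of the mirror rule, 146 (44.9%) also lay in stretches 7 to 10, with the highest shares of unnamed clones in stretches 7 and 8 (6.97% and 7.53%) and 9 clones in stretch 10. The median over the other unnamed clones moved along the table as well, from -0.084 log units in stretch 6 to 0.058 in stretch 10. When each array was centred within each stretch, an alternative chosen after seeing the data, 88 clones met the rule, 64 of the 89 among them, and the last stretch held 5 of these 88. What the row numbers stand for on the slide is not stated.

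**Figure D5:**
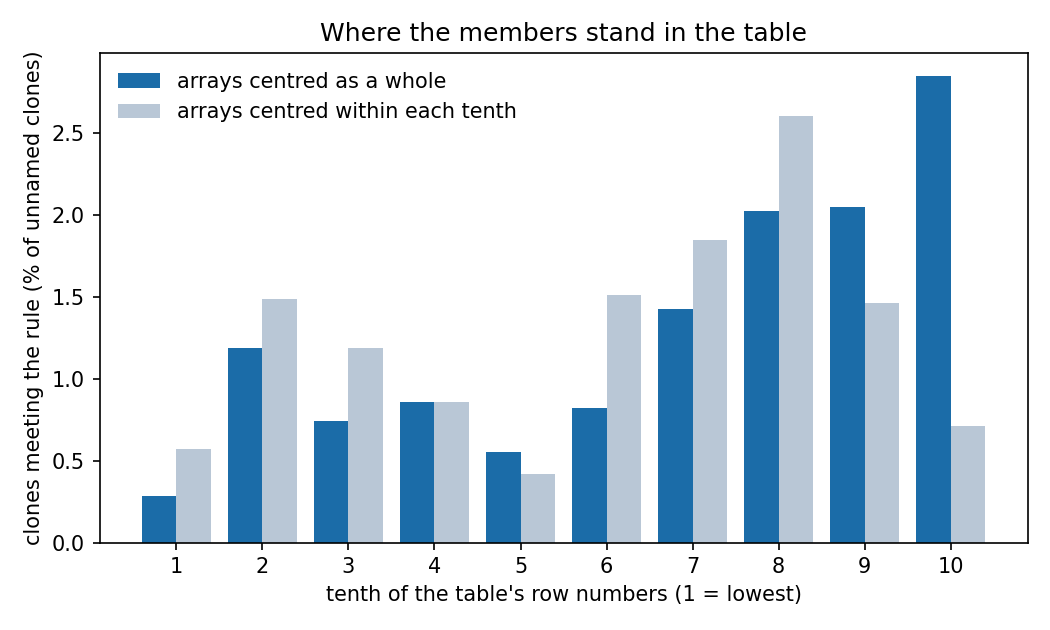
Clones meeting the rule as a percentage of the unnamed clones (vertical axis) in 10 equal stretches of the table's row numbers (horizontal axis, lowest first), with each array centred as a whole (dark) and within each stretch (light). The dark bar of the last stretch stands at 2.84% for 20 members, and 5 clones make up the light one.

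Members also lay near each other. Another member stood within 12 rows of 30 of the 89 members (33.7%), while 10.6% of the other unnamed clones had a member that near. The 10.6% is taken over the whole table, and members were denser in stretches 7 to 10. This nearness is therefore not separate from the uneven spread over the table. Clones 13061, 13065 and 13067 had means of 0.49, 0.52 and 0.42 log units, and between them stood clone 13063, named for the gene 9-24, with 0.45. Over the 9 replicates clone 13065 correlated with 13067 at 0.96. Clones 14297 and 14303, 6 rows apart, correlated at 0.94 and had means of 0.33 and 0.32. Clones 11423 and 11429, also 6 rows apart, correlated at 0.89, with means of 0.37 and 0.30 in B46 against 0.60 and 0.69 in M14. Other neighbours did not move together, such as 11429 and 11431, at -0.23. Over the 25 member pairs within 12 rows the median correlation was 0.47, and over the 3891 pairs farther apart 0.15. These correlations are descriptions over 9 values that share arrays. Neighbouring clones of the whole table also correlated, at 0.20 on average over the replicates.

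Of the 489 clones with a gene name, 9 met the same rule (1.84%, beside 1.31% of all clones). They were gpc3 (mean 0.64 log units) and gpc4 (0.63), genes of cytosolic glyceraldehyde-3-phosphate dehydrogenase, nfd101 (0.50), the coatomer gene copz1 (0.46), 9-24 (0.45), the glutathione transferase gene gst30 (0.43), rcalm (0.42), the gene of the DNA-binding chromatin protein HMG I/Y-2 (0.33) and elfa3 (0.26) of the translation elongation factors. Their sizes thus lay within the range of the unnamed members. A member stood within 12 rows of 6 of the 9, against 11.9% of the other named clones over the whole table. Clone 11225 lay 4 rows from gpc4 and correlated with it at 0.91 over the 9 replicates, and clone 15125 lay 6 rows from copz1, at 0.86. Clone 2329 lay 4 rows from gst30, at 0.35. A neighbour's name does not pass to an unnamed clone. Of the 9 genes, 5 had other clones on the array. The other clone of gpc3 stood at 0.47 and that of elfa3 at 0.19, each above 0 in 8 of 9 replicates. Those of rcalm stood at 0.12 and 0.072, those of copz1 at 0.052 and -0.043, and those of 9-24 at -0.60 and -0.24.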

How the data were processed

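The deposited values are signed log ratios, 1 per array and row, between -9.70 and 11.5. Image analysis was done in ImaGene 4.1, per the labels. Which background correction, normalization, log base and direction the authors used is not given here, so the unit of the deposited values was set as other, and depth and background could not be checked. The table has 16560 rows, 14932 of them with values, and each clone stands on 2 identical rows, of which 1 was kept.

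From every value the median of its array was subtracted, the sign was turned, and dye-swap partners were averaged. All 7466 clones were fitted with limma 3.58.1 in R 4.3.3 (lmFit, eBayes, a mean per setting; prior degrees of freedom 1.51, residual 6), with Benjamini-Hochberg adjustment over all clones and calls at 0.05. The fit was tested on simulated data. Gene names come from the platform annotation, with synonyms from RefSeq genes (Zm-B73-REFERENCE-NAM-5.0). Members and rules were chosen with earlier results of these data known. Clones were named by rank in mean, relative spread, B46 minus M14, the dye contrast and nearness to the threshold; others named were chosen after their values were seen. Alternatives covered centring, scaling, thresholds, replicates, the replicate block and the dyes. The number of arrays limits the precision.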

Additional observations from a re-analysis of the deposited data

How the results depend on the processing

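The member count of 89 was 183, 152 and 31 with a mean threshold of 0, 0.15 and 0.4, and 238 with at least 8 of 9 values above 0. It was 19 with all 18 arrays above 0, 4 with values turned by the labelled dyes and 185 without replicate 3 of M14 and of mixed. With all rows kept it was 178, which was fixed in advance, since each clone stands on 2 identical rows. Leaving out 1 replicate gave between 86 and 125. The members' median in B46, 0.43, was 0.37 without centring and 0.35 with arrays scaled, and between 0.37 and 0.44 with 1 replicate left out. Members called in the average, 64, were 5 with trend and robust options, 0 turned by the dyes and between 29 and 58 with 1 replicate left out. Members called in B46, 21, were 11 with arrays scaled, 2 with trend and robust options, 0 turned by the dyes and between 1 and 20 with 1 replicate left out. Calls for differences between settings and for the dye contrast stayed at 0 in every alternative run. With the replicate number as a block, they were also 0, and the members called were 47 in the average and 6 in B46. Same-numbered replicates of different settings correlated between -0.034 and 0.10 in their deviations. Replicate 3 of M14 and of mixed both had a narrow spread of values, while replicate 3 of B46 did not. Whether same-numbered replicates share more than a number was not tested. A fit of only the settings in the contrast was not run for the dye contrast, which holds all 3. The count without 2 replicates, centring within stretches of the table and the alternatives for members called in the average and in B46 were chosen after seeing the data. For members called in the average and in B46, the share of all clones called under each alternative is not given. Their changes therefore cannot be told from changes over all clones. The causes of these changes were not tested.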
